A study of Homo sapiens with 4 samples.

Results

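Ubiquitin-specific proteases and their relatives, the enzymes that take ubiquitin off proteins, were described here at 70 cytidine positions in 25 genes, of 17862 positions in 6112 genes over the whole study. The members were chosen by gene name: every USP, OTUD or UCHL gene carrying a number, with CYLD, BAP1, OTUB1 and ATXN3. The RefSeq gene table of GRCh38.p14 has 66 protein-coding genes with such names, and all 25 listed ones were among them. The cells were LX-2, an established human hepatic stellate cell line of wild-type genotype, grown untreated (control, 2 libraries) or with recombinant human TGF-β1 at 5 ng/ml for 24 h (2 libraries). The question was which cytidines of the RNA carry N4-acetylcytidine (ac4C), cytidine with an acetyl group on its base, before and after this treatment. Sodium borohydride (NaBH4) reduces ac4C so that reverse transcriptase can misread it, and a modified C then appears as a mismatch. No library made without NaBH4 or from cells lacking the ac4C writer NAT10 was analysed here, so a listed position is a C mismatch and was not shown to be ac4C.

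Each group has 1 deposited table and 1 value per position, called here the mismatch difference and given in percent, with 1 p-value of the authors. The tables hold no values per library and no read depth. No value below therefore has a replicate error, no difference between the groups was tested, and a position absent from a table may be unmodified, under the authors' threshold or not covered. Intervals are 95% Wilson intervals and cover counting error only. Of 12 stellate cell markers, 6 had a listed position in either table (COL1A1, VIM, TIMP1, ACTA2, PDGFRB and COL3A1), while DES, LRAT, RELN, NGFR, HGF and COL1A2 had none. No hepatocyte or endothelial marker of those looked up was listed. The cholangiocyte marker SOX9 had 1 control position and the macrophage marker CD68 had 3 control and 2 TGF-β1 positions.

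Ubiquitin is attached to proteins by a cascade of activating, conjugating and ligating enzymes, and deubiquitinases cut it off again, trim ubiquitin chains and recycle free ubiquitin. The USP, UCH, OTU and Josephin families are cysteine proteases with different folds. In TGF-β signalling, ubiquitin marks the receptors and SMAD proteins for destruction, and several USP and OTU enzymes are known to reverse this, which keeps the pathway active for longer. UCHL1 has been described in activated stellate cells.

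At 2 of the 70 positions the surrounding sequence could be read, because they lie near a gene start held in the RefSeq promoter table of GRCh38.p14. They are shown because the first is the highest value of the family and the second lies at the start of the coding sequence of the gene with most positions. Each line runs 5′ to 3′ on the transcript strand with the listed cytidine in capitals.
UCHL1: agcctgggcggctcCgctagctgtttttc
USP5: tgccggtgtcatggCggagctgagtgagg
The UCHL1 stretch is chr4:41256910-41256938 on the plus strand, and its listed cytidine at position 41256924 is the middle base of a CCG triplet. It lies 4 bases upstream of the RefSeq gene start. The table annotates it as 5′UTR through 1 transcript, whose start is given as 41256911. The USP5 stretch is chr12:6852170-6852198 on the plus strand. Its listed cytidine at 6852184 is base 2 of codon 2 counted from the first ATG downstream of the RefSeq gene start, and it is the middle base of a GCG triplet. Over all listed positions inside such promoter windows, every one of 155 control and 208 TGF-β1 positions had a C on the stated strand at the printed coordinate. CCG with the listed C in the middle was found at 11.6% of these control positions and 11.1% of these TGF-β1 positions. A G followed the listed C at 55.5% and 61.1% and preceded it at 51.6% and 48.1%. These shares were not compared with the base composition of the windows.

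The family had 32 cytidines in the control table and 45 in that of TGF-β1, which is 1.41 times as many, beside 1.45 times over all positions. The members went both ways. Of the 25 genes, 10 gained positions in the TGF-β1 table (51.2% of all listed genes did), 9 had fewer there (35.3% of all) and 6 the same number (13.6% of all), so that 40% of the family (interval 23.4 to 59.3%) stood beside 51.2%. USP5 with 2 and 8 positions and USP11 with 0 and 6 had the largest excess and together held 14 of the 45 TGF-β1 positions. USP4, with 4 and 0, had the largest deficit. The ratio was 1.23 without USP5. With values of 5% or more only, 11 genes had more, 4 fewer and 2 equal numbers. The shares over all genes at that setting are not given here. With the TGF-β1 table shortened by lowest p-value to the control's 8112 positions, the family had 31 TGF-β1 positions. Of its 22 genes then listed 6 had more (39% of all genes did) and 11 had fewer (47.3% of all).

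**Figure D1:**
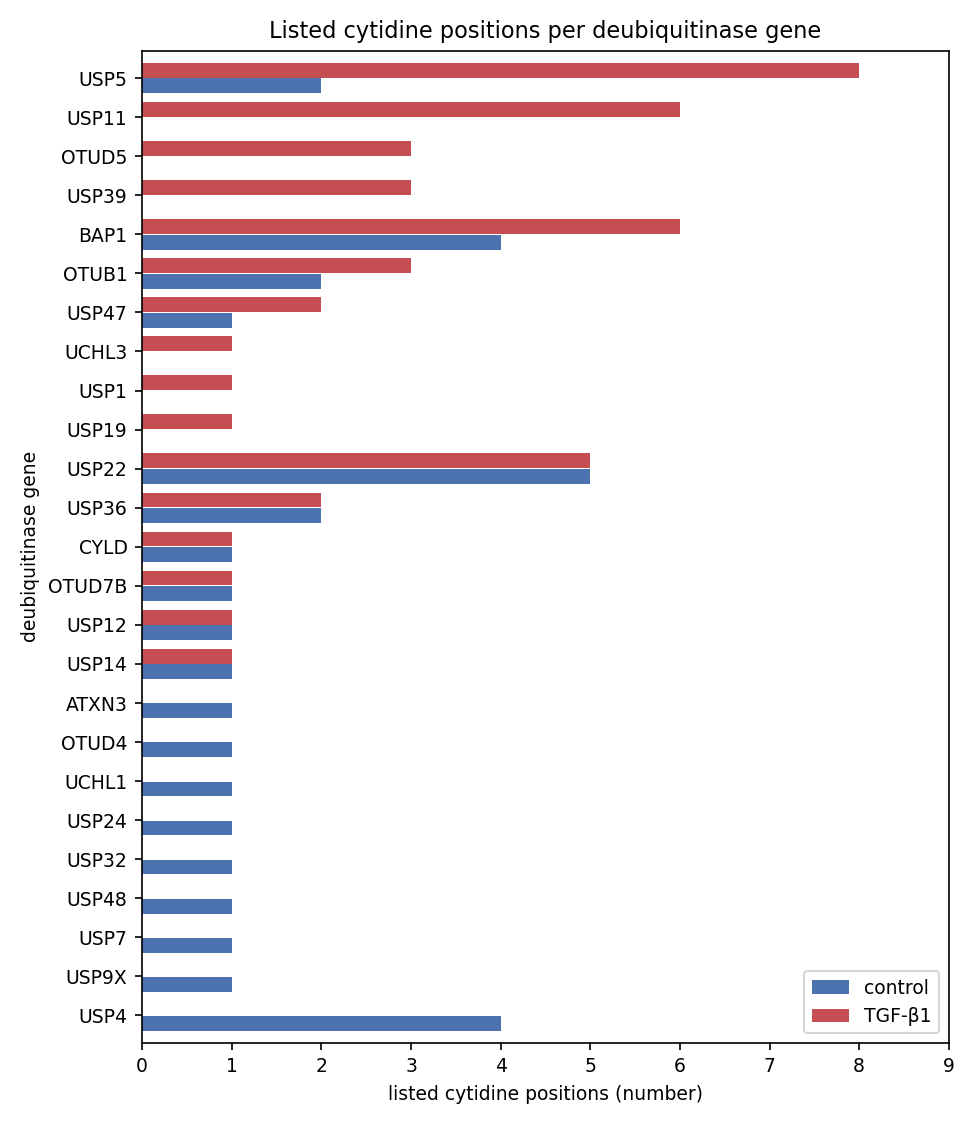
Number of listed cytidine positions (x axis) in each of the 25 deubiquitinase genes (y axis), with 1 bar for control and 1 for TGF-β1, ordered by the difference. USP5 and USP11 stand at the top with 8 and 6 positions after TGF-β1, and USP4 at the bottom with 4 control positions and no others.

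Both tables listed 10 of the genes (44.4% of all listed genes), 9 were in the control table only (27.3% of all) and 6 in the TGF-β1 table only (28.3% of all). The genes in the control table only were ATXN3, OTUD4, UCHL1, USP4, USP7, USP9X, USP24, USP32 and USP48. Those in the TGF-β1 table only were OTUD5, UCHL3, USP1, USP11, USP19 and USP39. Shared cytidines were few: 7 positions in 4 genes were in both tables, which is 21.9% of the control positions of the family (24.5% for all) and 15.6% of its TGF-β1 positions (16.9% for all). CYLD, OTUD7B, USP5, USP12, USP14 and USP36 were in both tables with no cytidine in common, 6 of 10 such members (47.7% of all genes in both tables). The remaining 41 family genes of the RefSeq table had no listed position, among them USP8, USP10, USP15, USP34 and UCHL5. By family, 17 of 52 USP-fold genes (CYLD included), 4 of 9 OTU genes, 3 of 4 UCH genes (BAP1 included) and ATXN3, the only Josephin gene named by the rule, were listed.

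Of 9 deubiquitinases known to act on TGF-β receptors or SMAD proteins, 5 were listed, and they went separate ways. USP11 and OTUB1 had more positions after TGF-β1, USP4 and USP9X fewer and CYLD the same number, and the 5 together had 8 in the control table and 10 in the other. All listed genes were split as well, with 51.2% having more, 35.3% fewer and 13.6% equal numbers. USP11 (ENSG00000102226), which takes ubiquitin off the type I receptor, had no control position and 6 after TGF-β1, all low, from 1.03% to 4.50%. From the 5′ end they were at chromosome X positions 47233175 with 3.19%, 47239811 with 2.97%, 47240316 with 1.03%, 47242294 with 4.50%, 47244862 with 4.19% and 47245071 with 1.84%. Those at 47239811 and 47240316 are annotated as 5′UTR, through 2 transcripts, and the others as coding. USP4 (ENSG00000114316), which acts on the same receptor, had the opposite pattern.

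USP4 had 4 coding positions in control and none after TGF-β1. They were on chromosome 3 at 49335572 with 4.10%, 49286299 with 1.51%, 49284551 with 3.70% and 49278901 with 10.6%, so that only the one nearest the 3′ end was above 5%. OTUB1 (ENSG00000167770), which binds phosphorylated SMAD2 and SMAD3 and shields them from ubiquitin, had 2 control positions and 3 TGF-β1 positions. Its shared coding position, chromosome 11 at 63997366, had 3.96% in control and 1.90% after TGF-β1. The coding positions 63996594 with 4.99% and 63996874 with 8.13% were listed after TGF-β1 only, and a 3′UTR position at 63998094 with 14.9% in control only. The authors' p-value of this 3′UTR position was 0.0483, near the limit of 0.05. CYLD, which takes apart linear ubiquitin chains in NF-κB signalling, had a coding position of 2.28% in control and a 3′UTR position of 8.90% after TGF-β1. USP9X, which removes ubiquitin from SMAD4, had 1 control position at 2.31%. USP15, UCHL5, USP2 and USP26 of the same list had none.

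Most of the family's shared cytidines lay in the chromatin enzymes USP22, with 3, and BAP1, with 2. Of 11 deubiquitinases of histones and chromatin, 4 were listed (BAP1, USP22, USP36 and USP7), with 12 control and 13 TGF-β1 positions, 5 of them shared. USP36 and USP7 had none of these. Over all positions, 24.5% of those in control and 16.9% of those after TGF-β1 were shared. BAP1 (ENSG00000163930) removes ubiquitin from histone H2A together with ASXL proteins and had 4 and 6 positions on chromosome 3. Its pair of shared cytidines lies 2 bases apart and went opposite ways. The control and TGF-β1 values were 16.0% and 21.4% at 52402114, and 9.35% and 4.45% at 52402112. Both are annotated as coding through 1 transcript of 488 bases, while listed positions on either side of them, 52402168 with 7.70% and 52401299 with 2.80% after TGF-β1, are annotated as 3′UTR through 4 and 3 other transcripts.

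Control alone listed BAP1 at 52405116 with 3.79% and 52403658 with 9.54%, and TGF-β1 alone at 52403877 with 11.3% and 52403208 with 1.58%, all 4 coding. USP22 (ENSG00000124422), the deubiquitinase of the SAGA coactivator complex, had 5 positions in each table on chromosome 17. Its 3 shared cytidines were all higher after TGF-β1. The coding one at 21006970 had 2.10% and 4.36%. The 3′UTR ones had 8.18% and 10.7% at 21002606 and 4.30% and 11.8% at 21002163.

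TGF-β1 alone also listed USP22 in the 3′UTR at 21000374 with 18.4% and at 21002186 with 3.52%, and control alone listed 2 coding cytidines 4 bases apart, 21004219 with 2.04% and 21004215 with 5.59%. All of the USP22 positions of 10% or more were thus in its 3′UTR and in the TGF-β1 table. USP27X and USP51 are close relatives of USP22 and neither was listed; how reads that map to several genes were treated is not given in the sources used here. USP36 (ENSG00000055483), a nucleolar enzyme, had 6.28% and 1.49% at 2 coding positions in control, 78807361 and 78803672 on chromosome 17. After TGF-β1 it had 7.46% at the coding position 78802447 and 26.0% in the 3′UTR at 78797843. USP7, which stabilises MDM2 and p53, had 1 coding control position at 3.85%.

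Enzymes that recycle ubiquitin or sit on the proteasome were listed in 4 of 6 cases, with 4 control and 10 TGF-β1 positions. USP5 held 8 of the 10. None was in common, beside 24.5% of all control positions and 16.9% of all TGF-β1 positions. The 4 control positions are too few to read this as a trait of these enzymes. USP5 (ENSG00000111667), which takes apart free ubiquitin chains, had more distinct positions than any other member, 10 on chromosome 12. In control these were the cytidine in codon 2 shown above, 6852184 with 2.03%, and a 3′UTR position at 6866230 with 5.04%. The 8 positions after TGF-β1 were all coding and ran from 1.29% to 6.64% with a median of 2.43%. From the 5′ end, the first 4 were 6852286 with 5.31%, which lies 102 bases downstream of the control cytidine, 6855524 with 1.36%, 6856310 with 2.56% and 6856369 with 2.30%. The other 4 were 6856834 with 2.22%, 6860228 with 6.64%, 6861029 with 3.86% and 6861472 with 1.29%. USP5 was thus listed at many cytidines and at low values, as was USP11.

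UCHL1 (ENSG00000154277), a small ubiquitin hydrolase, showed the reverse: its single listed cytidine, that in the sequence above, had 58.9% in control and was absent after TGF-β1. UCHL3, its close relative, had a single coding position after TGF-β1, chromosome 13 at 75605746 with 10.9%. USP14, which binds the proteasome reversibly, had a coding position of 4.27% in control (chromosome 18 at 210439) and another of 13.9% after TGF-β1 (192865).

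Of 10 enzymes of the DNA damage response and cell cycle, 6 were listed, with 5 control and 12 TGF-β1 positions. USP11 belongs here too and alone held 6 of the 12, and so does OTUB1. Of the 6 genes 4 had more positions and 2 fewer, beside 51.2% and 35.3% of all listed genes. Over all positions the TGF-β1 table held 1.45 times as many as that of control. USP47 (ENSG00000170242), which removes ubiquitin from DNA polymerase beta, had the highest values of the family after TGF-β1. At the coding cytidine 11956050 of chromosome 11 the value was 12.3% without and 43.2% with TGF-β1, and a cytidine 930 bases upstream, 11955120, had 38.7% after TGF-β1 only. USP1, which acts on FANCD2 and PCNA with its partner WDR48, had 1.48% after TGF-β1. USP24 with 2.40% and USP48 with 1.00% were in control only.

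Of 6 family members tied to RNA or the ribosome 3 were listed, with 6 control and 5 TGF-β1 positions. These were USP4 with 4 and 0, USP36 with 2 and 2, and USP39 with 0 and 3. USP39, a spliceosome protein of the USP fold, was thus in the TGF-β1 table only. Its coding positions on chromosome 2 were 85616342 with 13.0%, 85636113 with 1.90% and 85648789 with 6.01%. Of 7 membrane and organelle enzymes 2 were listed. USP32, from which part of the hominoid gene USP6 derives, had 22.8% at a coding position in control only (chromosome 17 at 60181568). Reads of such relatives can be hard to separate, and whether this bears on the USP32 value was not tested. USP19, anchored in the endoplasmic reticulum, had 3.82% after TGF-β1 only. USP12, another partner of WDR48, had 4.43% at a coding position in control (chromosome 13 at 27105853) and 14.1% in the 3′UTR after TGF-β1 (27067367).

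No position of the OTUD enzymes, several of which act in innate immune and NF-κB signalling, reached 10%. OTUD5, an inhibitor of interferon production, had 3 positions after TGF-β1 only, with 1.63% in coding sequence and 7.02% and 6.88% in the 3′UTR. OTUD7B had a coding position of 3.43% in control and a different one of 7.04% after TGF-β1. OTUD4 had 4.14% and ATXN3, the polyglutamine protein of Machado-Joseph disease, 6.98%, each in control only. The 11 members that had no shared cytidine, fewer than 4 distinct positions and no value of 10% or more ran from 1.00% to 8.90% over their 15 positions.

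**Figure D2:**
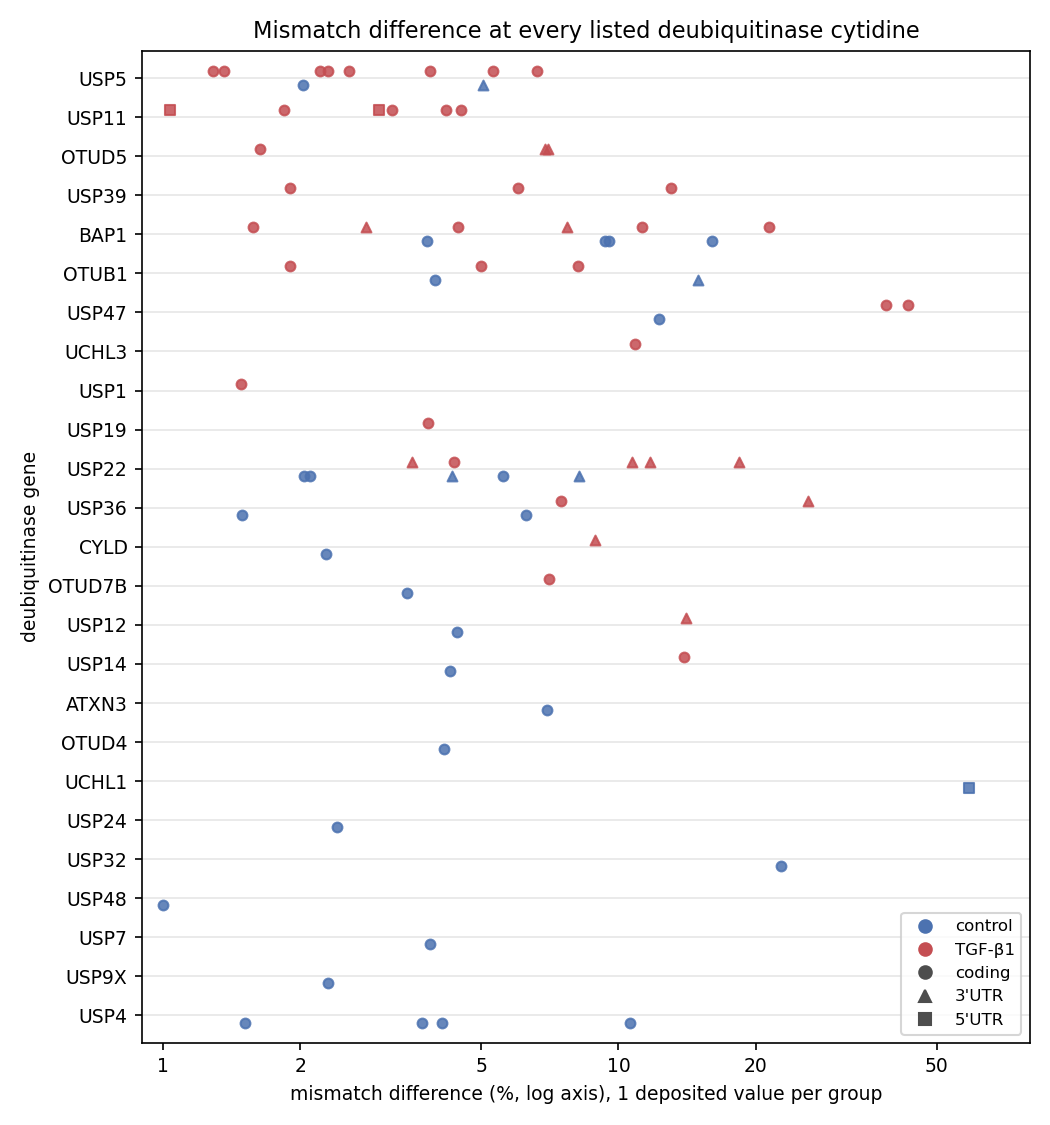
Mismatch difference (x axis, percent on a log axis) at every listed cytidine of each deubiquitinase gene (y axis). Each point is 1 deposited value, coloured by group and shaped by transcript segment, and has no replicate error. USP47 reaches 43.2% after TGF-β1, UCHL1 stands at 58.9% in control, and the 8 USP5 and 6 USP11 points after TGF-β1 all lie under 7%.

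Values of 10% or more were listed at 6 of 32 control positions of the family (18.8%, interval 8.89 to 35.3%, with 12.4% for all) and at 12 of 45 TGF-β1 positions (26.7%, interval 16.0 to 41.0%, with 18.5% for all). The family's median values were 4.20% and 4.99%, beside 4.05% and 4.68% over all positions. The control positions of this size were in BAP1, OTUB1, UCHL1, USP4, USP32 and USP47. After TGF-β1 they were in BAP1, UCHL3, USP12, USP14, USP22, USP36, USP39 and USP47. BAP1 and USP47 were in both of these groups of genes.

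At the 7 shared cytidines, 5 values were higher after TGF-β1 and 2 were lower (71.4% higher, interval 35.9 to 91.8%, with 78.4% for all). A value at least 2-fold higher was seen at 3 of the 7 (27.7% for all), with 3.53-fold in USP47, 2.73-fold in the 3′UTR of USP22 and 2.07-fold in its coding sequence. The difference of 31.0 points in USP47 was equalled or exceeded at 21 of the 1985 shared positions of the study, USP47 included. A value at least 2-fold lower was seen at 2 of the 7 (1.66% for all), with 2.10-fold in BAP1 and 2.08-fold in OTUB1. In both of these the authors' p-value was exactly 0 in control and above 0.01 after TGF-β1, at 0.0168 in BAP1 and 0.0441 in OTUB1. With positions of p below 0.01 only, 4 shared cytidines were left and all 4 were higher after TGF-β1. That limit takes out both lower cytidines through their TGF-β1 p-value, so it cannot bear on direction. Without USP22 2 of 4 were higher. The median log2 ratio of the 7 was 0.42, beside 0.58 over all shared positions.

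**Figure D3:**
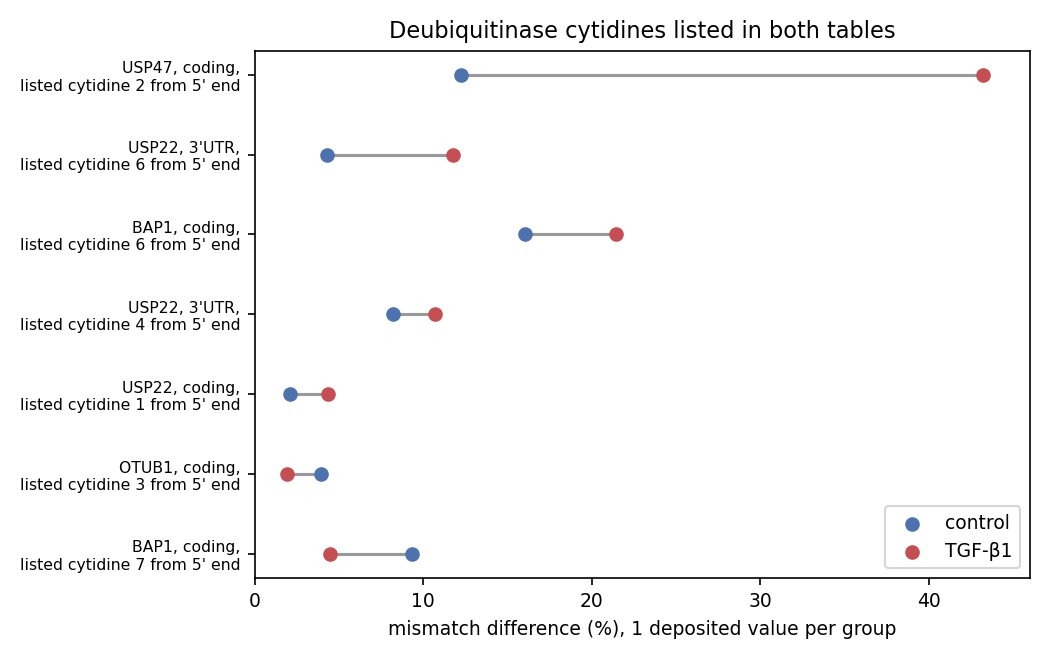
Mismatch difference (x axis, percent) at the 7 deubiquitinase cytidines present in both tables (y axis), with 1 point for control and 1 for TGF-β1 joined by a line. USP47 stands at 12.3% and 43.2%, and the points of OTUB1 and of a BAP1 cytidine lie lower after TGF-β1, at 1.90% and 4.45%.

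The family's positions in 3′UTRs numbered 4 of 32 in control (12.5%, interval 4.97 to 28.1%, with 12.6% for all) and 11 of 45 after TGF-β1 (24.4%, interval 14.2 to 38.7%, with 12% for all). The 11 lay in USP22 with 4, BAP1 and OTUD5 with 2 each, and CYLD, USP12 and USP36 with 1 each. Their values ran from 2.80% to 26.0% with a median of 8.90%, beside 5.71% for all 3′UTR positions of that table. A p-value of exactly 0 was given at 6 of the 11, namely both in BAP1, that in CYLD, 2 in USP22 and that in USP36. Over all genes it was given at 315 of the 1407 3′UTR positions of that table. Positions with such a p-value were 3 of 32 in control (8.04% for all) and 7 of 45 after TGF-β1 (11% for all), the seventh being the coding position of USP14. Without them 5 of 38 TGF-β1 positions (13.2%) were in 3′UTRs, and 10.5% of all positions of that table. Of all TGF-β1 positions with such a p-value, 24.4% were in 3′UTRs, so this recount lowers a 3′UTR share by construction. Without USP22 the count was 7 of 40 (17.5%, interval 8.75 to 31.95%), and this interval includes the 12% for all.

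Coding sequence held 27 of the 32 control positions (74.7% for all) and 32 of the 45 TGF-β1 positions (76.3% for all). Both counts include the 2 shared cytidines of BAP1, which are annotated as coding through 1 short transcript. They lie between listed positions annotated as 3′UTR through other transcripts, and are not in the 3′UTR counts above. In 5′UTRs there were 1 control position (9.87% for all), that of UCHL1, and 2 TGF-β1 positions (9.96% for all), those of USP11. None of the 70 positions was annotated to a second gene.

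**Figure D4:**
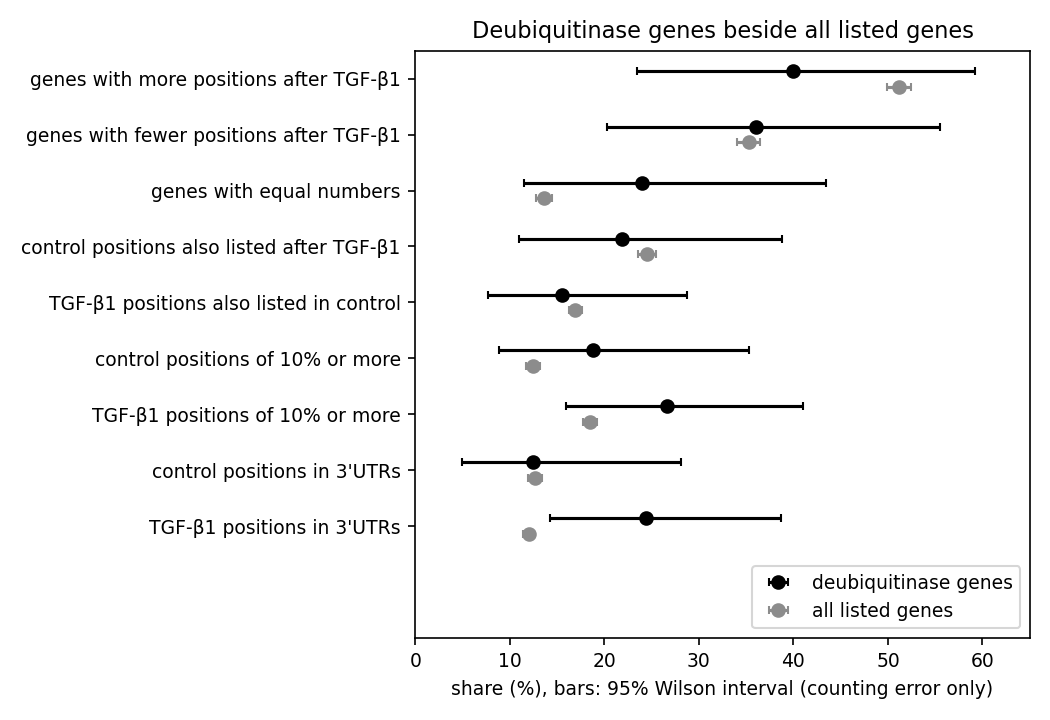
Shares in percent (x axis) for the deubiquitinase genes and for all listed genes, by measure (y axis); bars are 95% Wilson intervals for counting error. Of the measures plotted, the family's interval leaves out the value of all genes for TGF-β1 positions in 3′UTRs, at 24.4% beside 12%. Without p-values of exactly 0 these were 13.2% and 10.5%. That recount lowers such shares by construction, as 24.4% of all TGF-β1 positions it takes out were in 3′UTRs. Without USP22 the family's share was 17.5%, with an interval that includes 12%.

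Members with more positions after TGF-β1 were shorter genes than those with fewer. The 10 genes with more had a median span of 15.7 kb, among them BAP1 with 9 kb, USP19, USP5, USP11, USP1 and OTUB1 with 12.9 to 16.0 kb, and as the longest USP47 with 120 kb. The 9 genes with fewer had a median of 83.2 kb, from UCHL1 with 12.0 kb to USP32 with 245 kb, and the 6 with equal numbers 58.1 kb. Over all listed genes the medians were 21.1 kb for more, 48.6 kb for fewer and 28.7 kb for equal numbers. The part of gene span, of transcript level and of read depth in the counts of the family was not tested.

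The other genes of the ubiquitin pathway described here were taken from 3 lists. Over all listed genes 51.2% had more positions after TGF-β1, 35.3% fewer and 13.6% equal numbers. Of 36 activating and conjugating enzymes 20 were listed, with 25 and 40 positions, 9 having more, 4 fewer and 7 equal numbers. UBA1, the main activating enzyme, had 2 and 6 positions, the conjugating enzyme UBE2S 4 and 4, and UBE2H 2 and 2. Of 25 partners of deubiquitinases 14 were listed, with 37 and 62 positions, 6 having more, 6 fewer and 2 equal numbers. PSMD2, a subunit of the proteasome base, had 3 and 15, VCP, the segregase, 2 and 12, and ADRM1, the proteasome receptor that binds UCHL5, 3 and 10. The larger total of the partners after TGF-β1 came from these 3 genes. Of the shared positions, 7 of 10 in the activating and conjugating enzymes and 11 of 12 in the partners were higher after TGF-β1 (78.4% for all).

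Of 26 deubiquitinases and related proteins outside the naming rule 8 were listed, with 10 and 8 positions, 3 having more, 4 fewer and 1 equal numbers. COPS6, a subunit of the COP9 signalosome, had 5 and 5, and STAMBP, an endosomal metalloprotease, 2 and 0. EIF3F, a translation initiation factor subunit of the same metalloprotease fold, had 0 and 1. NAT10 itself had 2 control positions and 1 after TGF-β1.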

How the data were processed

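Polyadenylated RNA of 4 NaBH4-treated LX-2 libraries was sequenced, per the labels' protocols. The submitters' processing notes name fastp 0.23.1, STAR 2.7.6a, featureCounts and build hg38; the position caller, its filters and how replicates were pooled were not given in the sources used here. Per group there is 1 table deposited by the authors, whose mismatch difference is a fraction, 1.00% or more at every position (printed in percent). The authors' deposited p-value is below 0.05 throughout, with its adjustment unstated. Depth is unknown, and the 2 terms of the difference are not stated.

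Lines were merged to 1 per position and gene name with pandas 2.3.3 in Python 3.11.15, giving 8112 positions in the control table and 11735 in the other. The end coordinate is printed: all positions inside RefSeq promoter windows had a C there. Positions were shared at equal chromosome, base and strand. Each position and gene pair carries 1 kind of segment in the tables. Wilson intervals came from statsmodels 0.14.6. The counting was tested on simulated data. With 1 value per group no test between groups was run.

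All 25 listed members are named. Members with a shared position, 4 or more distinct positions or a value of 10% or more are given with their values. From each list of other pathway genes up to 3 members with most distinct positions are named; unlisted genes were named after their absence was seen. The members and lists were chosen with earlier results of these data known. A further list of pathway genes is not reported here.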

Additional observations from a re-analysis of the deposited data

How the results depend on the processing

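The counts were recomputed with stricter p-values and minimum values, without p-values of exactly 0, with a shortened TGF-β1 list, without positions of several genes, without USP5 and with positions shared within 10 bases; leaving out USP22 and the 3′UTR recounts were chosen after seeing the data. Of 48 values 33 stayed within 1.5 times the main count or inside the main interval and 15 did not. For the split of genes only the number with more positions was compared. With p below 0.01 the family had 4 shared positions, and 100% of them were higher after TGF-β1. With p below 0.001 it had 20 control positions, 4 shared ones and 100% higher. At 5% or more it had 13 control and 22 TGF-β1 positions, 3 shared ones and 100% higher. At that setting 11 genes had more positions after TGF-β1, 4 fewer and 2 equal numbers. Without p-values of exactly 0, 100% of 5 shared positions were higher, and 5 TGF-β1 positions lay in 3′UTRs. With the TGF-β1 list shortened, 100% of 5 were higher and 6 genes had more positions. Without USP22 there were 4 shared positions, of which 2 (50%) were higher, and 7 TGF-β1 positions in 3′UTRs. These settings leave fewer positions by construction. Each setting with 100% higher had taken out both lower cytidines by its own limit, so these shares cannot bear on direction. The same shares over all shared positions are not given here. Leaving out a replicate was not possible. No paired analysis was possible because the tables hold 1 value per group and none per library. Depth limits every statement of absence from a table, and 7 shared positions limit any statement of direction.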
